A study of Homo sapiens with 12 samples.

Results

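The genes that carry a cell from G1 into S phase were followed through THZ1 treatment in KURAMOCHI (Ku) and COV362 (Cov), 2 human ovarian cancer cell lines. The set holds 10 genes taken by name from the expression tables: the D-type cyclins *CCND1*, *CCND2* and *CCND3*, the E-type cyclins *CCNE1* and *CCNE2*, the kinases *CDK4*, *CDK6* and *CDK2*, the pocket protein gene *RB1*, and *CDKN2A*, which encodes the inhibitor p16. All 10 were found among the 23621 genes of each table. Of these, 9 passed the minimum used for testing (more than 1 FPKM in any of the 12 libraries), as did 14251 genes in all. *CCND2* did not.

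Each line was treated for 6 hr with DMSO, the vehicle, or with THZ1 at 50 nM or 250 nM, with 2 libraries in each of the 6 groups. THZ1 is a covalent inhibitor of the transcriptional kinases CDK7, CDK12 and CDK13. The labels give all cells as untransduced controls, Ku grown in RPMI and Cov in DMEM, each with fetal bovine serum. Synthetic ERCC RNAs were mixed into RNA normalized by cell count as spike-ins, and because the values were scaled to them, FPKM follow transcript amount per cell and do not have to sum to the same total. The sums over a library ran from 607016 to 1234308 FPKM in Ku and from 758681 to 1686567 in Cov, and the lowest value of a library, its floor, lay between 0.0783 and 0.119. Library depth is unknown, since no read counts were used here. In bulk RNA, fewer cells of a kind and less RNA per cell cannot be told apart. In the DMSO libraries the Müllerian lineage markers *PAX8* (136 FPKM in Ku, 124 in Cov) and *SOX17* (143 and 117) and the epithelial keratin gene *KRT8* (2432 and 1133) were high in both lines, whereas *WT1* was high in Ku alone (56.8 against 0.653), and *KRT7* (4.61 against 1355) and *EPCAM* (4.13 against 162) were high in Cov. *MUC16* was near the floor in Ku (0.166) and at 5.71 in Cov, and the epithelial cadherin gene *CDH1* was low (0.468 and 4.45). Of 5 markers of other cells, the leukocyte gene *PTPRC* (0.235 and 0.130) and the endothelial gene *PECAM1* (0.156 and 0.338) lay near the floor, while the endothelial gene *CDH5* (8.23 and 7.75) and the fibroblast genes *COL1A1* (2.53 and 3.17) and *COL3A1* (8.58 and 0.663) had higher values.

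D-type cyclins bind CDK4 and CDK6, and the E-type cyclins bind CDK2. Both kinds of complex phosphorylate the RB1 protein, which releases E2F transcription factors and lets S-phase genes be transcribed. p16 binds CDK4 and CDK6 and blocks the D-type cyclins. *CDKN2A* also encodes p14ARF from a separate first exon, and the table gives 1 value for both products. CDK7, a target of THZ1, acts both in transcription and, with cyclin H and MNAT1, as the kinase that activates the cell cycle CDKs. Cyclin E amplification and p16 overexpression are well-known features of high-grade ovarian cancers.

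In GRCh37, the same build as hg19, *CCND1* lies at chr11:69455924-69469242 (plus strand), *CCND2* lies at chr12:4378937-4414519 (plus strand), *CCND3* lies at chr6:41902672-42018095 (minus strand), and *CCNE1* lies at chr19:30302898-30315219 (plus strand). Among the kinases *CDK4* lies at chr12:58141510-58149796 (minus strand), *CDK6* lies at chr7:92234235-92465887 (minus strand) and *CDK2* lies at chr12:56360565-56366573 (plus strand), and *RB1* lies at chr13:48877880-49173572 (plus strand) and *CDKN2A* lies at chr9:21967751-21995300 (minus strand).

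The promoters are shown for 4 members with different responses at the mRNA level. *CCND1* lost most of its mRNA at the low dose, and *CCNE1* kept little at the high dose. *RB1* and *CDKN2A* lost least of the tested members at the high dose. *CCNE2*, which kept least in Cov at the high dose (4.91% of its DMSO mean), is not shown. Each shown promoter is the 250 bases before the start site of the canonical transcript, written 5′ to 3′ on the gene's own strand from GRCh37. The *CDKN2A* gene begins upstream of its window, and its FPKM value covers p16 and p14ARF together. Which share of its mRNA starts at this window was not tested. Capitals mark the GC box GGGCGG on either strand and, in *CCND1* and *RB1*, an E2F-type octamer. Windows are *CCND1* chr11:69455674-69455923, plus strand, *CCNE1* chr19:30302648-30302897, plus strand, *RB1* chr13:48877637-48877886, plus strand and *CDKN2A* chr9:21974857-21975106, minus strand.
CCND1: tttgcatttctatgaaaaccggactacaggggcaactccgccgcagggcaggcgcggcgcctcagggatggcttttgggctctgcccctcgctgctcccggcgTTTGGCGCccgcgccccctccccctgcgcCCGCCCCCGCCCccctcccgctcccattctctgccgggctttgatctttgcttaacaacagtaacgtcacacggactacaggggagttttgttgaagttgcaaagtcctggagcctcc
CCNE1: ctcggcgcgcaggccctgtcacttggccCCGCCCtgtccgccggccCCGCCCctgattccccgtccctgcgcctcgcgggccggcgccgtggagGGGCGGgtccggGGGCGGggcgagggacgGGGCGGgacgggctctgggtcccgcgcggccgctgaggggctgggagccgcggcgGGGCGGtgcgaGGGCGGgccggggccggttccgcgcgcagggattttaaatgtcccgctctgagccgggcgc
RB1: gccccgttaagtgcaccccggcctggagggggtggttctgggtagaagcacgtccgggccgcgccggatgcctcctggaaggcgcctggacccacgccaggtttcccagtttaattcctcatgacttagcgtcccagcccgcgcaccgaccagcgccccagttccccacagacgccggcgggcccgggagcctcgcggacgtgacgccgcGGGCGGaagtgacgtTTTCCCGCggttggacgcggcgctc
CDKN2A: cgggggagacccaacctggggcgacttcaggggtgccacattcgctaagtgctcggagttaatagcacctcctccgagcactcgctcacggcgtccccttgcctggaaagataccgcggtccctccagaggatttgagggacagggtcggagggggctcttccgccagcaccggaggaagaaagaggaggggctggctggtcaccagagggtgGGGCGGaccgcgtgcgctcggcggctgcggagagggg
The octamers searched were TTTCCCGC, TTTCGCGC, TTTGCCGC and TTTGGCGC on both strands. Among the 10 members, *CCND1* (at base -147 from the start) and *RB1* (at -25) held 1 each and the other 8 none in this window. In all, 3.77% of 19818 promoters of protein-coding genes held 1. The GC box was found 7 times before *CCNE1*, 4 times before *CDK2*, 3 times before *CCNE2*, *CDK4* and *CDK6*, 2 times before *CCND1* and *CCND3*, and 1 time before *RB1* and *CDKN2A*, but not before *CCND2*, against 59.2% of promoters with any match. No member held TATAAA, which 9.28% of promoters held. These are letter matches within one window and are given as a description.

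In untreated cells the members differed widely in level. FPKM are corrected for transcript length and are here compared between genes within a line. In Ku, *CDKN2A* was the most abundant at 349 ± 13.5 FPKM (SD, n = 2), followed by *CCND1* at 139 ± 8.49 and *CDK4* at 90.2 ± 7.64. *CCND3* and *CDK2* came next, *CCNE1*, *CCNE2* and *RB1* overlapped their neighbours at 39.9, 38.7 and 35.5, and *CDK6* lay below them at 27.5. In Cov the order began with *CCND1* at 419 ± 38.4 FPKM, then *CDK4* at 309.9 ± 20.03 and *CDKN2A* at 233 ± 14.8. *CDK2* (97.3) and *CDK6* (95.2) overlapped. *RB1* stood apart between the lines, with 37.5 and 33.5 FPKM in the Ku DMSO libraries and 1.24 and 1.57 in those of Cov. The tables were normalized separately, so this difference was not tested. *CCND2* was at or just above the floor in all 12 libraries, from 0.0867 to 0.260 FPKM, and its share of the summed D-type cyclin FPKM was at most 0.231%.

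**Figure D1:**
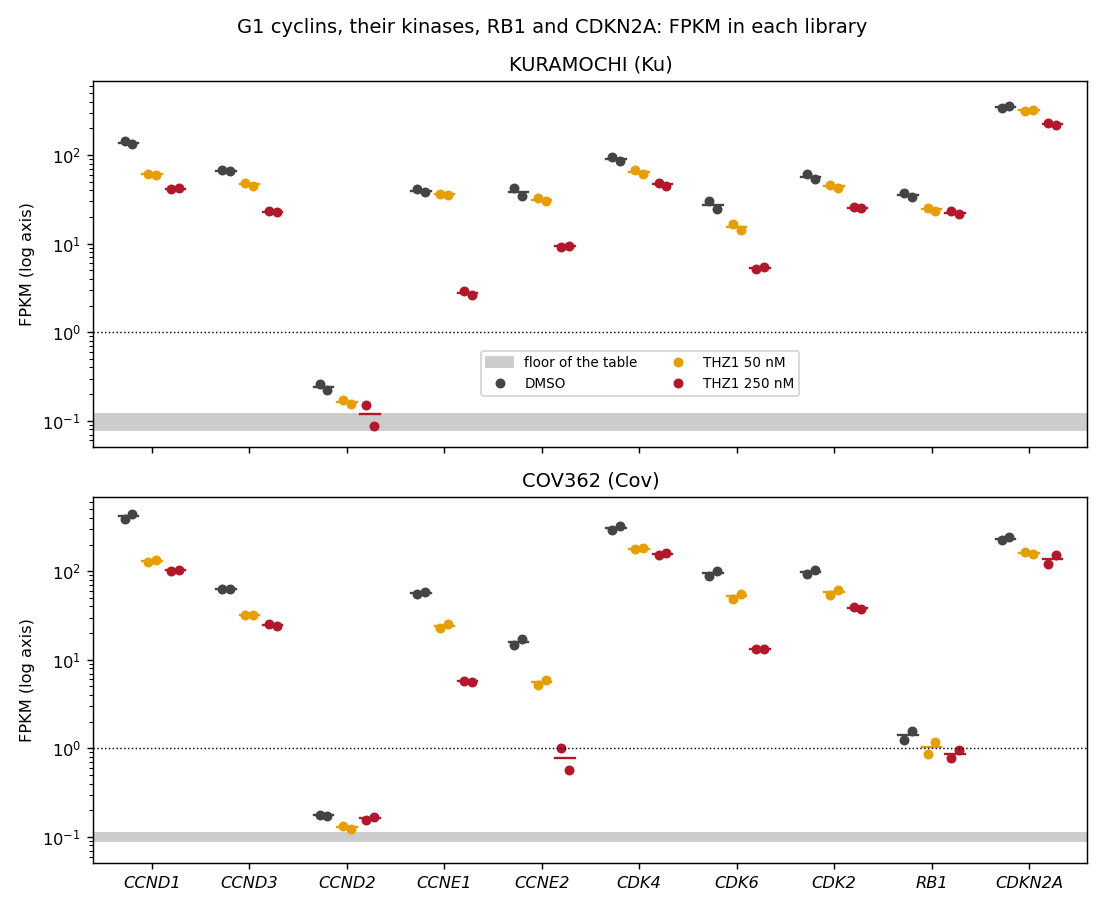
FPKM of the 10 genes in each of the 12 libraries on a log axis, with Ku above and Cov below. Points are single libraries, short bars the mean of 2, the grey band the range of library floors and the dotted line an FPKM of 1. *CCNE1* drops at 250 nM to 2.91 and 2.64 in Ku, and *RB1* in Cov and *CCND2* in both lines lie low throughout.

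*CCND1*, the main D-type cyclin of both lines, lost most of its mRNA already at 50 nM. In Ku it stood at 145 and 133 FPKM in the DMSO libraries, 61.9 and 59.8 at 50 nM and 41.6 and 42.1 at 250 nM. In Cov it stood at 392 and 446 FPKM in the DMSO libraries, 126 and 135 at 50 nM and 102 and 103 at 250 nM. The 3 groups of each line did not overlap, and the larger step was the one from DMSO to 50 nM. The log2 fold change of FPKM + 1 at 50 nM was -1.17 ± 0.066 (SE, adjusted p = 0.000232) in Ku and -1.67 ± 0.093 (SE, adjusted p = 2.16e-05) in Cov, by limma with Benjamini-Hochberg adjustment over the 14251 genes. Calls needed an adjusted p below 0.001 and a log2 fold change beyond 0.5. *CCND1* was called lower at both doses in both lines, at 250 nM with -1.70 ± 0.066 (SE, adjusted p = 7.97e-06) and -2.02 ± 0.093 (SE, adjusted p = 1.25e-06). Of the log2 fall at 250 nM, 68.9% in Ku and 82.9% in Cov was reached at 50 nM. The step between the doses was called in Ku (-0.53 ± 0.066 SE, adjusted p = 0.000683), though not without any 1 of the 4 treated Ku libraries (-0.55 to -0.50, adjusted p 0.00427 to 0.00694), with no minimum FPKM (0.00223) or with eBayes without trend (0.00207), and not in Cov (-0.35 ± 0.093 SE, adjusted p = 0.0152). The Ku call at 50 nM was lost without any 1 of the 6 Ku libraries (log2 fold change -1.24 to -1.11, adjusted p 0.00106 to 0.00249), with no minimum FPKM and in the fit of only the 2 groups compared.

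*CCND3*, the second expressed D-type cyclin, fell less steeply than *CCND1* at the low dose. In Ku it had 67.7 and 65.8 FPKM in the DMSO libraries, 48.4 and 45.3 at 50 nM and 23.3 and 22.7 at 250 nM. In Cov it had 63.5 and 63.7 FPKM in the DMSO libraries, 32.3 and 32.3 at 50 nM and 25.4 and 24.3 at 250 nM. Here too the groups of each line did not overlap. At 50 nM 70.2% of the DMSO mean FPKM was left in Ku and 50.8% in Cov, and at 250 nM 34.4% and 39.1%. *CCND3* was called lower at 250 nM in Ku (-1.50 ± 0.066 SE, adjusted p = 1.02e-05) and at both doses in Cov (-0.96 ± 0.076 SE, adjusted p = 3.71e-05 and -1.32 ± 0.076 SE, adjusted p = 2.76e-06), whereas Ku at 50 nM gave -0.50 ± 0.066 (SE, adjusted p = 0.00174) and was not called. Between the doses it fell in Ku (-0.995 ± 0.066 SE, adjusted p = 9.23e-05), a call lost without the first 50 nM library (adjusted p = 0.00118) or without either 250 nM library (0.00129 and 0.00126), and was not called in Cov (-0.36 ± 0.076 SE, adjusted p = 0.00523). *CCND2*, at 0.260 and 0.224 FPKM in the Ku DMSO libraries and 0.177 and 0.173 in those of Cov, was too near the floor to test.

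*CCNE1*, the cyclin that activates CDK2 at the G1/S boundary, showed the widest gap between doses of any member in Ku. In Ku it had 41.5 and 38.2 FPKM in the DMSO libraries, 36.7 and 35.4 at 50 nM and 2.91 and 2.64 at 250 nM. At 50 nM it thus kept 90.5% of its DMSO mean and was not called (-0.14 ± 0.090 SE, adjusted p = 0.23), but at 250 nM 6.96% was left, with a log2 fold change of -3.44 ± 0.090 (SE, adjusted p = 6.52e-06). Cov cells had 54.8 and 57.5 FPKM in the DMSO libraries, 22.6 and 25.2 at 50 nM and 5.76 and 5.68 at 250 nM. These values fell at both doses, to 42.6% and 10.2% of DMSO, with log2 fold changes of -1.20 ± 0.091 (SE, adjusted p = 3.21e-05) and -3.09 ± 0.091 (SE, adjusted p = 8.16e-07). Of the log2 fall at 250 nM, 4.06% was reached at 50 nM in Ku and 38.9% in Cov. The step from 50 nM to 250 nM was itself called in both lines, at -3.30 ± 0.090 (SE, adjusted p = 2.63e-05) in Ku and -1.89 ± 0.091 (SE, adjusted p = 3.59e-05) in Cov. Both the 250 nM calls and the calls between doses were made under all 10 other settings tried and without any 1 library.

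*CCNE2*, which encodes the other cyclin E, fell mainly between 50 nM and 250 nM in Ku and at both doses in Cov. In Ku it had 42.4 and 34.96 FPKM in the DMSO libraries, 32.7 and 30.4 at 50 nM and 9.29 and 9.53 at 250 nM. Cov cells, with less of it, had 14.6 and 17.3 FPKM in the DMSO libraries, 5.26 and 5.87 at 50 nM and 1.00 and 0.564 at 250 nM. The Cov value at 250 nM, 4.91% of DMSO, straddled an FPKM of 1, where adding 1 before taking logs shrinks the fold change. At 50 nM 81.5% of the DMSO mean was left in Ku and 34.9% in Cov, so in FPKM the larger Cov step was the one from DMSO to 50 nM, while on the log2 scale 42.0% of the Cov fall at 250 nM was reached at 50 nM and 14.6% of the Ku fall. *CCNE2* was called lower at 250 nM in both lines (-1.92 ± 0.11 SE, adjusted p = 1.82e-05 in Ku and -3.26 ± 0.15 SE, adjusted p = 1.27e-06 in Cov). At 50 nM it was called in Cov (-1.37 ± 0.15 SE, adjusted p = 0.00012) but not in Ku (-0.28 ± 0.11 SE, adjusted p = 0.0702), and the Cov call was lost without the second DMSO library (-1.25, adjusted p = 0.00149) and with the replicate number as a block (adjusted p = 0.00104). Between the doses it was called in both lines (-1.64 ± 0.11 SE, adjusted p = 9.33e-05 and -1.89 ± 0.15 SE, adjusted p = 9.32e-05), in Ku not without the first 50 nM library or either 250 nM library (adjusted p 0.00103 to 0.0012), and in Cov not with the block (0.00119). The gene shares 37.0% of its exonic bases with *INTS8* on the opposite strand, which had 36.9 FPKM in DMSO and 16.96 at 250 nM in Ku, and 14.5 and 5.29 in Cov (means of 2). The library kit keeps strand, but whether the counting used it is not given in the sources used here, and the part of *INTS8* reads in these values was not tested.

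The kinases of the D-type cyclins parted. *CDK6* had 30.00 and 24.96 FPKM in the DMSO libraries, 16.8 and 14.4 at 50 nM and 5.17 and 5.44 at 250 nM in Ku. In Cov it had 89.1 and 101 FPKM in the DMSO libraries, 48.3 and 55.5 at 50 nM and 13.4 and 13.2 at 250 nM. *CDK6* thus kept 19.3% of its DMSO mean at 250 nM in Ku and 13.96% in Cov. It was called lower at 250 nM in both lines (-2.17 ± 0.13 SE, adjusted p = 2.05e-05 and -2.75 ± 0.10 SE, adjusted p = 9.1e-07) and between the doses (-1.40 ± 0.13 SE, adjusted p = 0.000231 and -1.89 ± 0.10 SE, adjusted p = 3.82e-05). At 50 nM it was called in Cov (-0.86 ± 0.10 SE, adjusted p = 0.000179), though not without the second DMSO library (-0.77, adjusted p = 0.00177), and not in Ku (-0.77 ± 0.13 SE, adjusted p = 0.00389). The Ku call between doses was lost without either 50 nM or either 250 nM library (-1.50 to -1.29, adjusted p 0.00117 to 0.00252) and with no minimum FPKM (0.00142).

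*CDK4*, the more abundant of the pair, kept more of its mRNA. Its Ku values were 95.6 and 84.8 FPKM in the DMSO libraries, 67.97 and 60.8 at 50 nM and 48.99 and 45.3 at 250 nM. The Cov values were 296 and 324 FPKM in the DMSO libraries, 177 and 182 at 50 nM and 151 and 161 at 250 nM. At 250 nM 52.3% was left in Ku and 50.4% in Cov, with log2 fold changes of -0.92 ± 0.092 (SE, adjusted p = 0.000142) and -0.98 ± 0.086 (SE, adjusted p = 1.91e-05), both called. The Ku call was lost without the second 250 nM library (-0.86, adjusted p = 0.00136). At 50 nM *CDK4* was called in Cov (-0.79 ± 0.086 SE, adjusted p = 0.000117) and not in Ku (-0.48 ± 0.092 SE, adjusted p = 0.00666), and the step between doses was called in neither line (adjusted p = 0.00595 and 0.0846). *TSPAN31*, on the opposite strand, overlaps 44.2% of the exonic bases of *CDK4*, at 9.53 FPKM in Ku and 14.1 in Cov in DMSO, against 90.2 and 309.9 for *CDK4*, and its part in these values was not tested.

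*CDK2*, the partner of cyclin E, kept less of its mRNA than *CDK4* and more than *CDK6* at 250 nM in both lines. At 50 nM 77.9% of its DMSO mean was left in Ku and 59.2% in Cov, beside 71.4% and 57.8% for *CDK4*, without a test of these differences. The Ku values were 61.1 and 53.2 FPKM in the DMSO libraries, 46.5 and 42.5 at 50 nM and 25.7 and 25.2 at 250 nM. Its Cov values were 92.2 and 102 FPKM in the DMSO libraries, 53.8 and 61.4 at 50 nM and 39.9 and 37.3 at 250 nM. It was called lower at 250 nM in both lines (-1.13 ± 0.090 SE, adjusted p = 5.48e-05 and -1.31 ± 0.10 SE, adjusted p = 9.76e-06), at 50 nM in Cov (-0.75 ± 0.10 SE, adjusted p = 0.000291) but not in Ku (-0.35 ± 0.090 SE, adjusted p = 0.0185), and between doses in Ku (-0.78 ± 0.090 SE, adjusted p = 0.000517) but not in Cov (-0.56 ± 0.10 SE, adjusted p = 0.00257). Some of these calls were lost when a single library was left out. The Cov call at 50 nM was lost without either DMSO library or without the first 50 nM library (-0.82 to -0.65, adjusted p 0.00105 to 0.00269) and with the replicate block (0.00123), and the Ku call between doses without either 50 nM or either 250 nM library (-0.85 to -0.72, adjusted p 0.00222 to 0.0048), with no minimum FPKM (0.00235) and with eBayes without trend (0.00121).

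*RB1* and *CDKN2A* kept more of their mRNA at 250 nM than the tested cyclins did. In Ku *RB1* had 37.5 and 33.5 FPKM in the DMSO libraries, 25.3 and 23.5 at 50 nM and 23.3 and 21.7 at 250 nM. It was called lower at 250 nM (-0.63 ± 0.090 SE, adjusted p = 0.000675) but not at 50 nM (-0.52 ± 0.090 SE, adjusted p = 0.00451), and the THZ1 doses differed by -0.11 ± 0.090 (SE, adjusted p = 0.298). The call at 250 nM was lost without any 1 of the 6 Ku libraries (-0.72 to -0.55, adjusted p 0.00114 to 0.00695), with no minimum FPKM, without the trend in eBayes and in the fit of only the 2 groups. In Cov *RB1* had 1.24 and 1.57 FPKM in the DMSO libraries, 0.862 and 1.19 at 50 nM and 0.773 and 0.960 at 250 nM, both DMSO libraries lay above all 4 treated ones while the doses overlapped each other, and no comparison was called, with -0.36 ± 0.12 (SE, adjusted p = 0.0192) at 250 nM. At such FPKM the log2 scale used here understates a change, and 61.9% of the DMSO mean was left, beside 63.3% in Ku.

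*CDKN2A* was the member with most FPKM left at 250 nM in Ku. Ku cells had 339.6 and 359 FPKM in the DMSO libraries, 313 and 328 at 50 nM and 229.7 and 220.3 at 250 nM. In Cov it had 223 and 244 FPKM in the DMSO libraries, 166 and 158 at 50 nM and 121 and 153 at 250 nM, and the Cov 250 nM libraries were further apart than in the other groups of this gene. It was called lower at 250 nM in Ku (-0.63 ± 0.061 SE, adjusted p = 0.000118) and in Cov (-0.77 ± 0.12 SE, adjusted p = 0.000572) and not at 50 nM in either line (-0.12 ± 0.061 SE, adjusted p = 0.13 and -0.52 ± 0.12 SE, adjusted p = 0.0051). Between the doses it was called in Ku (-0.51 ± 0.061 SE, adjusted p = 0.000594) but not in Cov (-0.25 ± 0.12 SE, adjusted p = 0.118). The 250 nM calls were lost in Ku without either 250 nM library (-0.66 and -0.60, adjusted p = 0.00103 and 0.0014), and in Cov without either DMSO library or the first 250 nM library (-0.84 to -0.60, adjusted p 0.00188 to 0.00424), with the replicate block (0.00163) and with no minimum FPKM. The Ku call between doses was lost without any 1 library (-0.54 to -0.47, adjusted p 0.00119 to 0.00602), with no minimum FPKM (0.00228), without the trend in eBayes (0.00213) and in the fit of only the 2 groups (0.00112). *CDKN2B-AS1*, on the opposite strand, shares 15.3% of the exonic bases of *CDKN2A* and had 3.35 FPKM in Ku and 2.01 in Cov in DMSO.

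**Figure D2:**
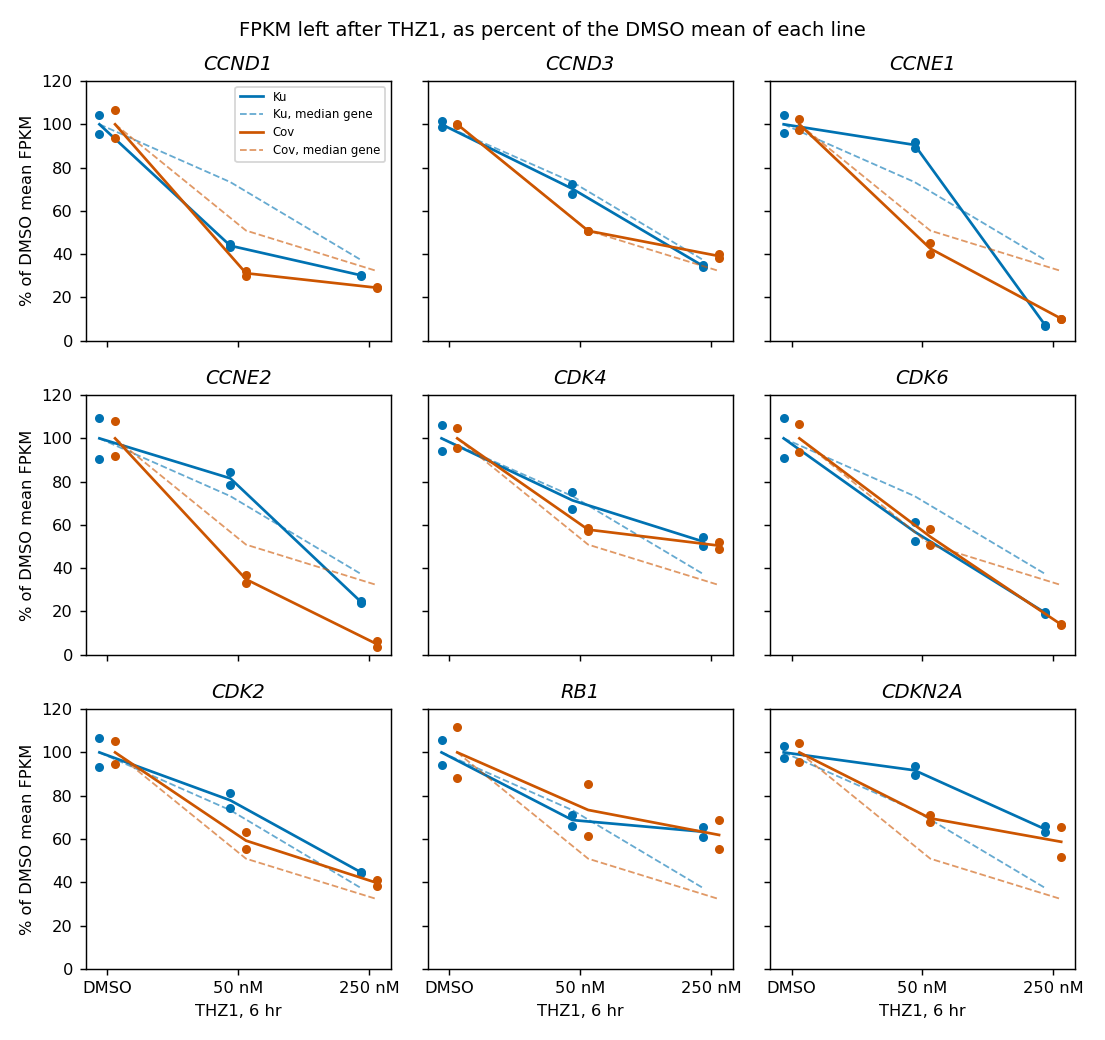
FPKM left at each dose as percent of the DMSO mean of the same line, for the 9 tested genes in Ku (blue) and Cov (orange). Points are libraries, solid lines means of 2, and dashed lines the median over genes with a DMSO mean FPKM above 10. *CCNE1* in Ku lies above the dashed line at 50 nM (90.5% against 73.3%) and far below it at 250 nM (6.96% against 37.3%).

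Most expressed genes were called lower at 250 nM, so each count of members is given beside the share of all tested genes. In Ku at 50 nM 1 of 9 tested members, *CCND1*, was called lower, against 11.3% of all tested genes. At 250 nM 9 of 9 were called lower in Ku, against 68.6% of all. In Cov 7 of 9 were called at 50 nM (all but *RB1* and *CDKN2A*), against 70.5%, and 8 of 9 at 250 nM (all but *RB1*), against 84%. From 50 nM to 250 nM, 7 of 9 were called lower in Ku (all but *CDK4* and *RB1*), against 36%, and 3 of 9 in Cov (*CCNE1*, *CCNE2* and *CDK6*), against 24.4%. All 9 also passed a minimum of 10 FPKM in at least 1 library, as did 9384 genes, and their counts were the same. Over those genes the shares called lower at 50 nM, 250 nM and between doses were 15.5%, 82.5% and 54.5% in Ku. In Cov they were 80.3%, 94% and 36.2%. No member was called higher in any of these comparisons, against 0.0842% (50 nM), 0.0491% (250 nM) and 0.0421% (between doses) of all genes in Ku and 0.0772%, 0.105% and 0.0842% in Cov. Leaving out any 1 Ku library left 0 calls in Ku at 50 nM, against 0.0421% to 0.919% of all genes in the same fits. Leaving out 1 of the 4 treated Ku libraries left 1 to 3 between the doses in Ku, against 5.55% to 11.2%, and leaving out the second Cov DMSO library left 4 in Cov at 50 nM, against 30.3%. The median log2 fold change of the members at 250 nM was -1.50 in Ku, beside -1.11 over all tested genes, and -1.32 in Cov, beside -1.31. Over the genes above 10 FPKM in at least 1 library it was -1.29 in Ku and -1.50 in Cov. The 3 groups lay in strict order without overlap, DMSO highest and 250 nM lowest, for 9 of 9 members in Ku and 8 of 9 in Cov (all but *RB1*), against 66.7% and 73.8% of all tested genes.

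Within this general fall the members took distinct places. Among genes with a DMSO mean FPKM above 10 (7726 in Ku, 8265 in Cov) the median gene kept 37.3% of its DMSO mean in Ku and 32.2% in Cov at 250 nM, with quartiles of 21.5% and 53.3% in Ku and 19.8% and 44.4% in Cov. *CCNE1* lay low in this ranking in both lines, with 5.50% of genes in Ku and 7.88% in Cov keeping less. For *CDK6* the same shares were 21.9% and 14.1%, and for *CCNE2* 29.1% and 1.67%. At the other end lay *CDKN2A*, with 89.2% and 95.1% of genes keeping less, *CDK4* with 73.6% and 85.1%, and, in Ku, *RB1* with 87.8%. *CCND1* was placed lower at 50 nM (12.7% and 10.8%) than at 250 nM (38.8% and 33.8%), whereas *CCNE1* in Ku went from 79.8% at 50 nM to 5.50% at 250 nM. *RB1* in Cov was too low to be placed. These places are descriptions without a test.

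Which members count as lower depends on the scale. On the spike-in scale the median gene itself moved by -1.11 in Ku and -1.31 in Cov at 250 nM. With median-of-ratios scaling, which sets that median near 0 (-0.00088 in Ku and 0.011 in Cov), *CCNE1* (-2.17 in Ku and -1.58 in Cov), *CCNE2* (-0.55 and -2.08) and *CDK6* (-0.84 and -1.19) were still called lower in both lines, against 19% of all tested genes in Ku and 18.9% in Cov. *CCND1* was not called (-0.26 and -0.41), nor was *CCND3* (-0.077 and 0.25). *CDK4* (0.52 and 0.63), *CDK2* (0.29 and 0.28), *RB1* (0.77 and 0.47) and *CDKN2A* (0.82 and 0.83) turned positive, with *RB1* called higher in Ku and *CDK4* in Cov, against 11.1% and 8.57% of all genes. With every library set to the same median FPKM, which moved the median log2 fold change to 0.29 in Ku and 0.31 in Cov, *CCNE1* was still called lower in both lines (-1.70 and -1.15). *CCNE2* (-0.048 and -1.75) and *CDK6* (-0.36 and -0.74) were then called lower in Cov and not in Ku. *CCND1* (0.25 and 0.048) and *CCND3* (0.43 and 0.70) crossed 0 on that scale in both lines. In all, 1 member was called lower on that scale in Ku and 3 in Cov, against 11.6% and 11.3% of all genes, and 4 were called higher in each line (*CDK2*, *CDK4* and *CDKN2A* in both, *RB1* in Ku and *CCND3* in Cov), against 26.9% and 26.4%.

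At 50 nM neither rescaling left any member called, against 0.737% (equal medians) and 2.72% (median of ratios) of all genes called lower in Ku and 0.147% and 0.772% in Cov, and 0.112% and 0.519% called higher in Ku and 0.0842% and 0.14% in Cov. Between the doses *CCNE1* was called lower on both scales in both lines, *CCNE2* with median-of-ratios scaling in both, and *CDK6* on both scales in Cov. All genes called lower made up 6.55% (equal medians) and 11.1% (median of ratios) in Ku and 4.95% and 7.92% in Cov. *RB1* was called higher between the doses on both scales in Ku, against 6.46% and 1.39% of all genes there, and no member was in Cov, against 3.16% and 0.498%.

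**Figure D3:**
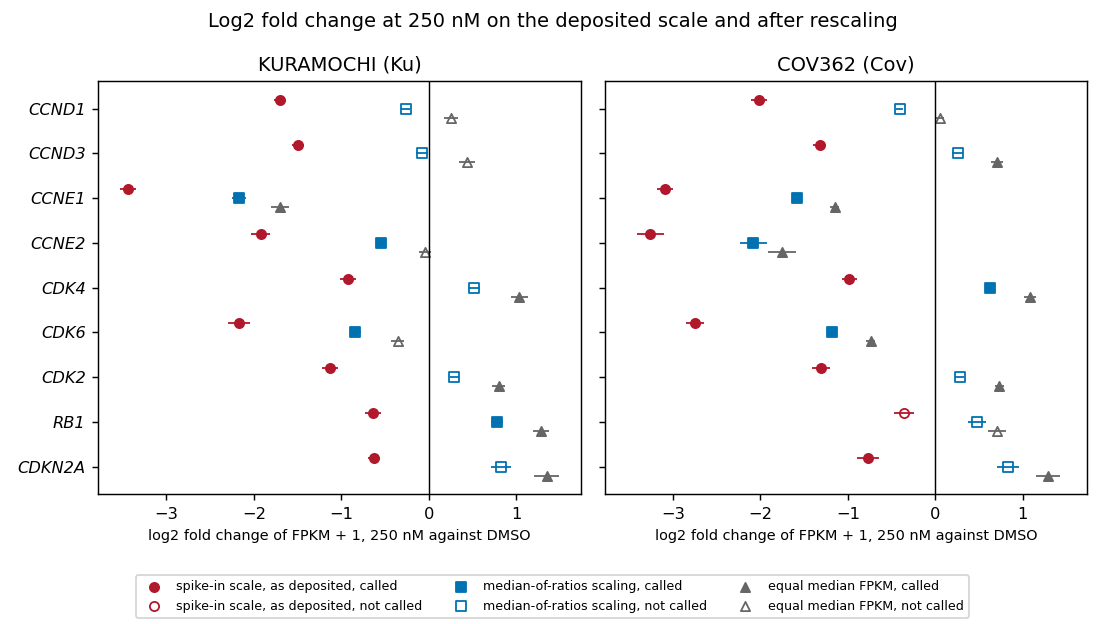
Log2 fold change of FPKM + 1 at 250 nM against DMSO for the 9 tested genes, on the deposited spike-in scale (circles), with median-of-ratios scaling (squares) and with equal library medians (triangles). Filled symbols were called, open ones were not, and bars are the SE of the fit. *CCNE1* stays called on the lower side on each of the 3 scales in both lines, *CDK4*, *CDK2*, *RB1* and *CDKN2A* cross 0 on both other scales in both lines, *CCND1* and *CCND3* cross it with equal library medians in both lines, and *CCND3* in Cov also with median-of-ratios scaling.

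Ratios between members within a library do not depend on how that library was scaled, and they shifted with dose. *CDK4* to *CDK6* was 3.19 and 3.40 in the Ku DMSO libraries, 4.04 and 4.21 at 50 nM and 9.48 and 8.33 at 250 nM. In Cov it was 3.32 and 3.20 in DMSO, 3.65 and 3.28 at 50 nM and 11.3 and 12.3 at 250 nM. In both lines both 250 nM libraries lay above all others. *CCNE1* to *CDK2*, a cyclin and its kinase, went from 0.680 and 0.717 in Ku DMSO libraries to 0.788 and 0.834 at 50 nM and 0.113 and 0.104 at 250 nM. In Cov it went from 0.594 and 0.563 to 0.420 and 0.411 at 50 nM and 0.144 and 0.152 at 250 nM, so the 50 nM libraries lay above DMSO in Ku and below it in Cov. *CCND1* to *CCNE1* fell and then rose with dose, from a mean of 3.48 ± 0.00501 (SD, n = 2) in Ku DMSO libraries to 1.69 ± 0.000210 and 15.1 ± 1.19, and from 7.45 ± 0.427 to 5.47 ± 0.154 and 17.9 ± 0.368 in Cov. These last ratios, with *CCNE1* to *CDK2*, were chosen after the values were seen.

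The cyclins of one type were not lowered in step either. *CCND1* made up 67.4 ± 0.913% of the summed D-type cyclin FPKM in Ku DMSO libraries, 56.4 ± 0.549% at 50 nM and 64.4 ± 0.625% at 250 nM, and 86.7 ± 1.03%, 80.1 ± 0.784% and 80.4 ± 0.654% in Cov. Its share was thus lowest at 50 nM in Ku, while the Cov doses overlapped each other. *CCNE1* to *CCNE2* moved in opposite directions in the lines at 250 nM, from 0.980 and 1.09 in DMSO to 0.314 and 0.277 in Ku and from 3.74 and 3.33 to 5.74 and 10.1 in Cov, the last pair resting on *CCNE2* values near 1 FPKM. At 50 nM this ratio lay above both DMSO libraries in both lines, at 1.12 and 1.17 in Ku and 4.29 and 4.30 in Cov. *CDKN2A*, whose value covers p16 and p14ARF together, was also set against the sum of *CDK4* and *CDK6*. This ratio was 2.99 ± 0.399 in DMSO and 4.29 ± 0.0695 at 250 nM in Ku and 0.576 ± 0.00424 and 0.806 ± 0.102 in Cov. With 2 libraries against 2 no exact permutation test of a ratio can give a p below 0.33, and none was run.

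**Figure D4:**
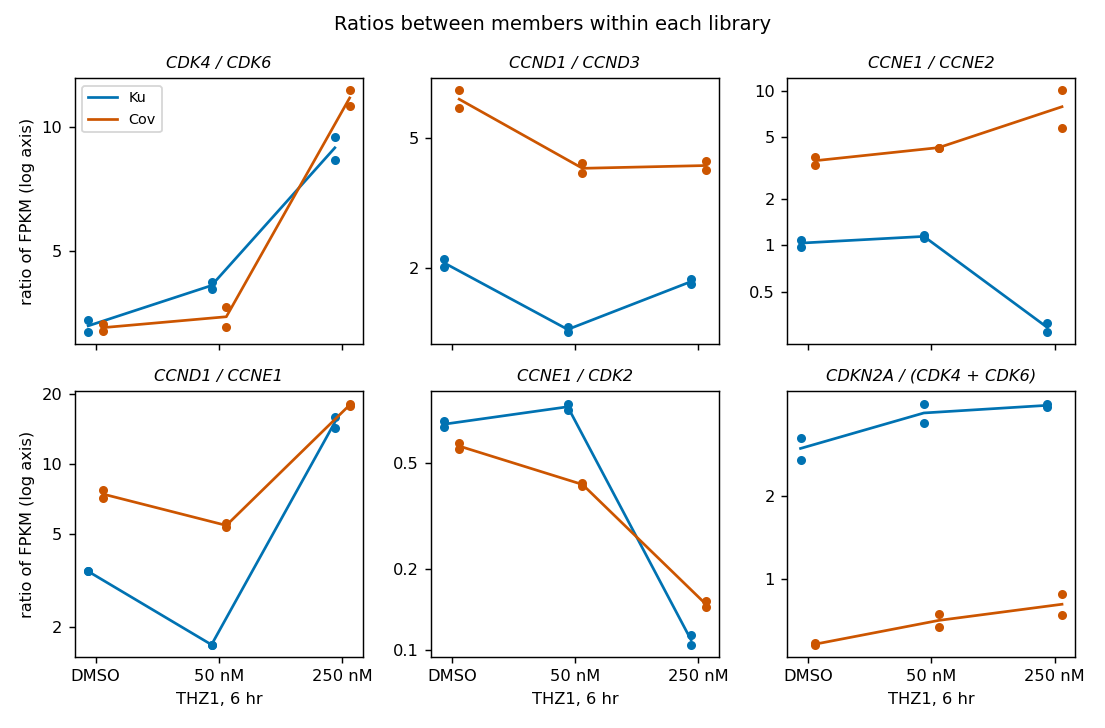
Ratios of FPKM between members within each library on log axes, for Ku (blue) and Cov (orange). Points are libraries and lines join the means of 2. *CDK4* to *CDK6* is highest at 250 nM in both lines, and *CCNE1* to *CCNE2* ends at 0.295 ± 0.0261 (SD, n = 2) in Ku and 7.90 ± 3.06 in Cov.

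The wider G1/S machinery was read from 25 genes that regulate or follow the members, all of them tested. At 250 nM 22 were called lower in Ku (all but *CCNH*, *CDKN1C* and *TFDP2*) and 24 in Cov (all but *CDKN1C*), against 68.6% and 84% of all tested genes. The genes above 10 FPKM in at least 1 library leave out *CDKN1C* and *CDKN2B* of the list. Of those genes 82.5% and 94% were called lower. The 25 had median log2 fold changes of -1.56 and -1.90. Over all genes the medians were -1.11 and -1.31, and over those above 10 FPKM -1.29 and -1.50. At 50 nM the counts were 4 in Ku (*CCNA2*, *CDKN1B*, *E2F1* and *E2F5*) and 19 in Cov, against 11.3% and 70.5% of all genes, and none was called higher at either dose. With equal library medians no call at 50 nM was left in either line, and with median-of-ratios scaling Ku had 1 lower (*E2F5*) and 1 higher (*SKP2*) and Cov none, against the shares of all genes given for these scales above. Among the inhibitors of the CIP/KIP family, *CDKN1B*, which encodes p27, had log2 fold changes of -3.91 in Ku and -3.05 in Cov at 250 nM, and *CDKN1A*, which encodes p21, of -1.81 and -1.72. *CDKN2B*, the INK4 gene next to *CDKN2A*, moved by -1.51 and -1.70, beside -0.63 and -0.77 for *CDKN2A*. The pocket protein genes *RBL1* (-1.63 and -1.90) and *RBL2* (-0.86 and -1.12) were called in both lines on the spike-in scale. *RBL1* was called on neither other scale (-0.39 and -0.63 with median of ratios, 0.070 and -0.27 with equal medians), and *RBL2* turned to 0.42 and 0.31 and, called higher in both lines, to 0.89 and 0.72. All 5 listed E2F genes were called lower in both lines on the spike-in scale, from *E2F1* (-1.56 and -1.95) and *E2F4* (-2.13 and -1.83) through *E2F5* (-2.65 and -2.54) and *E2F2* (-2.72 and -2.86) to *E2F3* (-3.42 and -3.33). *E2F2* and *E2F3* were called lower on both other scales too, *E2F5* with median-of-ratios scaling in Ku alone, and *E2F1* and *E2F4* on neither, with *E2F1* at 0.33 and 0.067 and *E2F4* at -0.28 and 0.14 with equal medians. Their dimer partner *TFDP1* moved by -0.94 and -0.96. It turned to 0.50 and 0.63 with median-of-ratios scaling, called higher in Cov, and to 1.01 and 1.09 with equal medians, called higher in both lines. *CDC25A*, the phosphatase that activates CDK2, moved by -2.71 and -3.87, and *CCNA2*, the S-phase cyclin, by -2.85 and -3.32. *CDK7* itself, a target of the compound, moved by -2.44 and -2.59. *CDKN1B*, *E2F3*, *CDC25A* and *CCNA2* were called lower on all 3 scales in both lines, *CDK7* on all but equal medians in Ku (-0.70), and *CDKN1A* and *CDKN2B* only on the spike-in scale, with *CDKN1A* in Cov (0.052) and *CDKN2B* in Ku (0.12) above 0 with equal medians. With median-of-ratios scaling 8 of the 25 were called lower and 2 higher in Ku at 250 nM, against 19% and 11.1% of all genes, and 9 and 2 in Cov, against 18.9% and 8.57%, with medians of -0.32 and -0.38. With equal library medians 6 were called lower and 5 higher in Ku, against 11.6% and 26.9%, and 7 and 5 in Cov, against 11.3% and 26.4%, with medians of 0.12 and 0.052.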

How the data were processed

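The authors sequenced 12 libraries (TruSeq Stranded mRNA kit, single-end reads). Reads were aligned with HISAT (build hg19), and cuffquant and cuffnorm gave FPKM (versions not given in the sources used here), which they scaled to the ERCC spike-ins. They deposited a separate table for each line, with 23713 rows, 92 of them ERCC. The deposited FPKM are not counts, so no count model was fitted and depth is unknown.

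Values were taken as log2(FPKM + 1), and each line was fitted separately with limma 3.58.1 in R 4.3.3 (lmFit, eBayes with trend, two-sided, 3 groups of 2). Genes above 1 FPKM in at least 1 library were tested, with p-values adjusted by the Benjamini-Hochberg method over all 14251. Calls needed an adjusted p below 0.001 and an absolute log2 fold change above 0.5. Per the paper, each treatment was done in duplicate and the RNA then isolated. Whether the duplicates were grown or plated apart beforehand is not given in the sources used here, so p-values measure the spread between duplicate treatments. An exact permutation test of 2 libraries against 2 cannot give a p below 0.33. Same-numbered libraries did not deviate together (Pearson's r -0.07 to 0.03), so no block was used. Named genes were the members, listed partners, neighbours and markers, the 2 nearest genes of each member, and overlapping genes chosen after their values were seen. The members and lists were chosen with earlier results of these data known. Alternatives were a pseudocount of 0.1, minimum FPKM of 10 or none, 2 other scalings, only the 2 groups compared, a replicate block, no trend in eBayes, looser significance (0.05), larger changes only (beyond 1) and leaving out each library. The percent of FPKM left among expressed genes and rescaled values for the partner list were added after seeing the data. Tables were read with data.table (version 1.17.8), positions and promoters come from GRCh37 and GENCODE, and figures from matplotlib 3.10.9 in Python 3.11.15.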

Additional observations from a re-analysis of the deposited data

Results flagged for a closer look

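*CCNH*, which encodes the cyclin H subunit of the CDK-activating kinase, had a log2 fold change of 0.38 in Ku and -0.77 in Cov at 50 nM. Every 50 nM library lay above both DMSO libraries in Ku (pairwise differences 0.15 to 0.61) and below both in Cov (-0.87 to -0.66). *FBXW7*, a ubiquitin ligase subunit that binds cyclin E, had 0.29 in Ku (0.19 to 0.39) and -0.55 in Cov (-0.68 to -0.43), again with every library on the same side. The difference between the lines was not tested, since each line was fitted on its own. By limma with Benjamini-Hochberg adjustment *CCNH* was called in Cov (adjusted p = 0.000366), whereas *CCNH* in Ku (0.0441) and *FBXW7* in either line (0.16 and 0.0122) were not. With median-of-ratios scaling the values were 0.91 and 0.21 for *CCNH* and 0.77 and 0.38 for *FBXW7*, and with equal library medians 1.05 and 0.39, and 0.89 and 0.54, so that both lines were then on the same side. On the spike-in scale no single member moved to opposite sides in this way, and this was not looked for on the other scales. Among ratios within a library, *CCNE1* to *CDK2* at 50 nM (mean 0.811 ± 0.0326 in Ku and 0.415 ± 0.00592 in Cov, SD, n = 2) lay above both DMSO libraries in Ku and below both in Cov, and *CCNE1* to *CCNE2* at 250 nM (0.295 ± 0.0261 and 7.90 ± 3.06) lay below them in Ku and above them in Cov. These differences were not tested either. Groups of 2 libraries are too small for a test of single libraries that stand apart.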

How the results depend on the processing

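The counts of members called lower depended most on scaling. With equal library medians they were 0 at 50 nM and 1 at 250 nM in Ku, 1 between the doses in Ku, and 0 at 50 nM and 3 at 250 nM in Cov. With median-of-ratios scaling they were 0, 3, 2, 0 and 3 in the same order. A log2 fold change beyond 1 gave 3 in Cov at 50 nM (against 35.5% of all genes) and 3 between the doses in Ku (25.2%), eBayes without trend gave 4 between the doses in Ku (31.3%), no minimum FPKM gave 3 there (8.05%) and 0 in Ku at 50 nM (0.0127%), the fit of only 2 groups gave 0 (0.0632%) and an adjusted p under 0.05 gave 4 in Ku at 50 nM (40.2%). All other settings with all libraries kept the 6 counts within 1.5 times. Leaving out 1 library gave 0 in Ku at 50 nM, 6 to 8 at 250 nM and 1 to 6 between the doses, and 4 to 7, 7 to 8 and 3 in Cov, against 0.0421% to 0.919%, 42.7% to 63.5% and 5.55% to 32.3% of all genes in Ku and 30.3% to 69.7%, 73.3% to 86.6% and 10.7% to 27.9% in Cov. Where this left a group with 1 library, that library is assumed to vary like the other groups. Ku between the doses gave 1 to 3 without either treated library of either dose. With the replicate number as a block, the counts were 1, 9 and 7 in Ku and 5, 7 and 2 in Cov, in the order 50 nM, 250 nM and between doses, against 6.94%, 66.6% and 34.7% of all genes in Ku and 51%, 78.6% and 7.93% in Cov, and the calls it ended are named with their genes. The cause of these changes was not tested, beyond the fewer samples of the fits without a library.

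With median-of-ratios scaling, log2 fold changes in Ku turned to the other side of 0 at 50 nM against DMSO to 0.047 for *CCND3*, 0.40 for *CCNE1*, 0.26 for *CCNE2*, 0.19 for *CDK2*, 0.071 for *CDK4*, 0.43 for *CDKN2A*, 0.019 for *RB1*, and at 250 nM against DMSO to 0.29 for *CDK2*, 0.52 for *CDK4*, 0.82 for *CDKN2A*, 0.77 for *RB1*, and from 50 nM to 250 nM to 0.36 for *CCND1*, 0.093 for *CDK2*, 0.45 for *CDK4*, 0.39 for *CDKN2A*, 0.76 for *RB1*. With median-of-ratios scaling, log2 fold changes in Cov turned to the other side of 0 at 50 nM against DMSO to 0.051 for *CCND3*, 0.27 for *CDK2*, 0.24 for *CDK4*, 0.15 for *CDK6*, 0.50 for *CDKN2A*, 0.28 for *RB1*, and at 250 nM against DMSO to 0.25 for *CCND3*, 0.28 for *CDK2*, 0.63 for *CDK4*, 0.83 for *CDKN2A*, 0.47 for *RB1*, and from 50 nM to 250 nM to 0.24 for *CCND1*, 0.20 for *CCND3*, 0.010 for *CDK2*, 0.39 for *CDK4*, 0.33 for *CDKN2A*, 0.19 for *RB1*. With equal library medians, log2 fold changes in Ku turned to the other side of 0 at 50 nM against DMSO to 0.19 for *CCND3*, 0.54 for *CCNE1*, 0.40 for *CCNE2*, 0.34 for *CDK2*, 0.22 for *CDK4*, 0.58 for *CDKN2A*, 0.16 for *RB1*, and at 250 nM against DMSO to 0.25 for *CCND1*, 0.43 for *CCND3*, 0.80 for *CDK2*, 1.03 for *CDK4*, 1.34 for *CDKN2A*, 1.28 for *RB1*, and from 50 nM to 250 nM to 0.73 for *CCND1*, 0.24 for *CCND3*, 0.46 for *CDK2*, 0.82 for *CDK4*, 0.76 for *CDKN2A*, 1.12 for *RB1*. With equal library medians, log2 fold changes in Cov turned to the other side of 0 at 50 nM against DMSO to 0.24 for *CCND3*, 0.46 for *CDK2*, 0.43 for *CDK4*, 0.34 for *CDK6*, 0.70 for *CDKN2A*, 0.35 for *RB1*, and at 250 nM against DMSO to 0.048 for *CCND1*, 0.70 for *CCND3*, 0.73 for *CDK2*, 1.08 for *CDK4*, 1.29 for *CDKN2A*, 0.71 for *RB1*, and from 50 nM to 250 nM to 0.50 for *CCND1*, 0.46 for *CCND3*, 0.27 for *CDK2*, 0.65 for *CDK4*, 0.59 for *CDKN2A*, 0.36 for *RB1*. Without the second 50 nM library of Cov, *RB1* moved between the doses by 0.0014, within a range of -0.23 to 0.0014 over the libraries left out. The FPKM hold no counts, so what depth limits could not be computed, and values near the floor (*CCND2*) or near 1 FPKM (*RB1* and *CCNE2* in Cov) carry the least precision.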

Other observations

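The genes whose response was most like that of each member were found as the 2 active genes nearest in Euclidean distance over 8 treated libraries, each as a log2 difference from the DMSO mean of its line. For *CCNE1* they were *DUSP5* (0.43) and *AKIRIN2* (0.45), for *CCNE2* *STK17B* (0.41) and *MSH6* (0.45) and for *CDK6* *ZFP82* (0.43) and *RNF138* (0.44). For *CCND1* they were *PSD4* (0.23) and *ABCA11P* (0.27), and for *CCND3* *MT2A* (0.19) and *PRKCE* (0.23). *CDK4* had *SNX17* (0.15) and *DCTN2* (0.18), *CDK2* had *LANCL1* (0.13) and *WWC2* (0.13) and *CDKN2A* had *RPL8* (0.14) and *LMAN2* (0.15) nearest, at distances below those of the steep members. *RB1* had *DDX11L2* (0.25) and *CAPN12* (0.26), with its Cov values near 1 FPKM in all libraries.

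Values are given for genes next to or overlapping 4 members. Next to *CDKN2A*, *MTAP* had 31.1 FPKM in Ku and 21.7 in Cov in DMSO, and *CDKN2B* 9.22 and 7.66. *URI1*, near *CCNE1*, had 83.1 and 47.1 in DMSO and 48.4% and 37.8% of that at 250 nM, beside 6.96% and 10.2% for *CCNE1*. *LPAR6*, which lies inside *RB1* on the opposite strand, had 7.86 and 6.82 FPKM in Ku DMSO libraries and 0.289 and 0.344 at 250 nM, and in Cov, where *RB1* is low, 0.106 and 0.129 in DMSO. *ORAOV1* (*LTO1* in the annotation), on the opposite strand, shares 10.4% of the exonic bases of *CCND1* and had 7.53 and 18.4 FPKM in DMSO, beside 139 and 419 for *CCND1*.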
